A study of Mus musculus with 10 samples.

Results

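The 10 genes described here make, carry or answer the cyclic AMP (cAMP) signal below the receptors: the adenylyl cyclase genes Adcy1, Adcy2, Adcy3, Adcy5, Adcy8 and Adcy9, the PKA catalytic subunit gene Prkaca, the PKA regulatory subunit gene Prkar1b, the anchoring protein gene Akap5 and the CREB gene Creb1. They were chosen by symbol for their place in the pathway, and all 10 were found among the 22255 genes of the deposited table and were among the 14358 that passed the expression filter.

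cAMP is the second messenger that links receptors at the cell surface to protein kinase A (PKA) and, through it, to transcription. Receptors coupled to the stimulatory G protein Gs, such as the beta adrenergic receptors, switch on adenylyl cyclases, the membrane enzymes that make cAMP from ATP. Receptors coupled to Gi and Go, such as the cannabinoid receptor CB1, inhibit several of these enzymes. cAMP releases the catalytic subunits of PKA from their regulatory subunits, anchoring proteins hold the kinase near its substrates, and nuclear PKA phosphorylates the transcription factor CREB, a step long studied in hippocampal long-term memory.

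RNA came from synaptoneurosomes, resealed synaptic fragments, prepared from the hippocampus of wild-type C57Bl/6J mice that had been given vehicle or AM6545 sub-chronically. AM6545 is an antagonist of the CB1 receptor that enters the brain poorly. There were 5 libraries from vehicle-treated and 5 from AM6545-treated mice, and both groups were wild type, so they differ by the drug alone as far as the labels say. Dose, route, age, sex and whether animals were pooled are not stated in the sources used here, so p-values measure only the spread between these libraries, which may be technical. The fraction is a bulk preparation, in which fewer cells of a type and less RNA per cell cannot be told apart.

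Library totals ran from 18106112 to 25899794 counts. All 40 markers of 8 cell types were detected in every library, so the fraction held RNA of glia and vessels as well as neurons. The summed CPM (counts scaled to library size by TMM) of 5 excitatory neuron markers ran from 2190 to 2690 in vehicle and from 2379 to 2645 in AM6545 libraries. For 5 oligodendrocyte markers these ranges were 13848 to 20270 and 11663 to 27446, for 5 astrocyte markers 1083 to 1697 and 1331 to 1871, and for 5 microglia markers 351 to 444 and 323 to 468. Vehicle replicate 1 had the lowest excitatory neuron and astrocyte sums and the highest choroid plexus sum (5035 CPM, against 60.8 to 3275 in the other vehicle and 649 to 3982 in the AM6545 libraries). In that library longer transcripts were also low: across 14334 genes, its deviation from the mean of the 10 libraries correlated with transcript length at r = -0.48, against -0.14 to 0.27 in the others.

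None of the 10 genes passed the test for a difference between AM6545 and vehicle libraries. With edgeR's quasi-likelihood test, the adjusted p (Benjamini-Hochberg) was under 0.05 for 0 of the 10 and was 0.9998 for each. The background was 0% of the 14358 genes tested. At an unadjusted p under 0.05 there were again 0 of the 10, where 1.88% of all genes tested lay (270 genes). In 0 of the 10 did the 5 AM6545 libraries separate from the 5 vehicle libraries in CPM, against 0.293% of all genes tested. Of the 10 log2 fold changes, 6 were above 0 and 4 below, where 48.1% of all genes tested were above 0. Their median was 0.01, against -0.01 over all genes. They ran from -0.19 for Adcy9 to 0.24 for Prkaca. Every 95% interval held 0. The interval that reached highest was that of Prkaca, up to 1.48-fold, and the lowest was that of Adcy9, down to 0.675-fold, and the intervals of all 10 genes lay between these bounds.

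**Figure D1:**
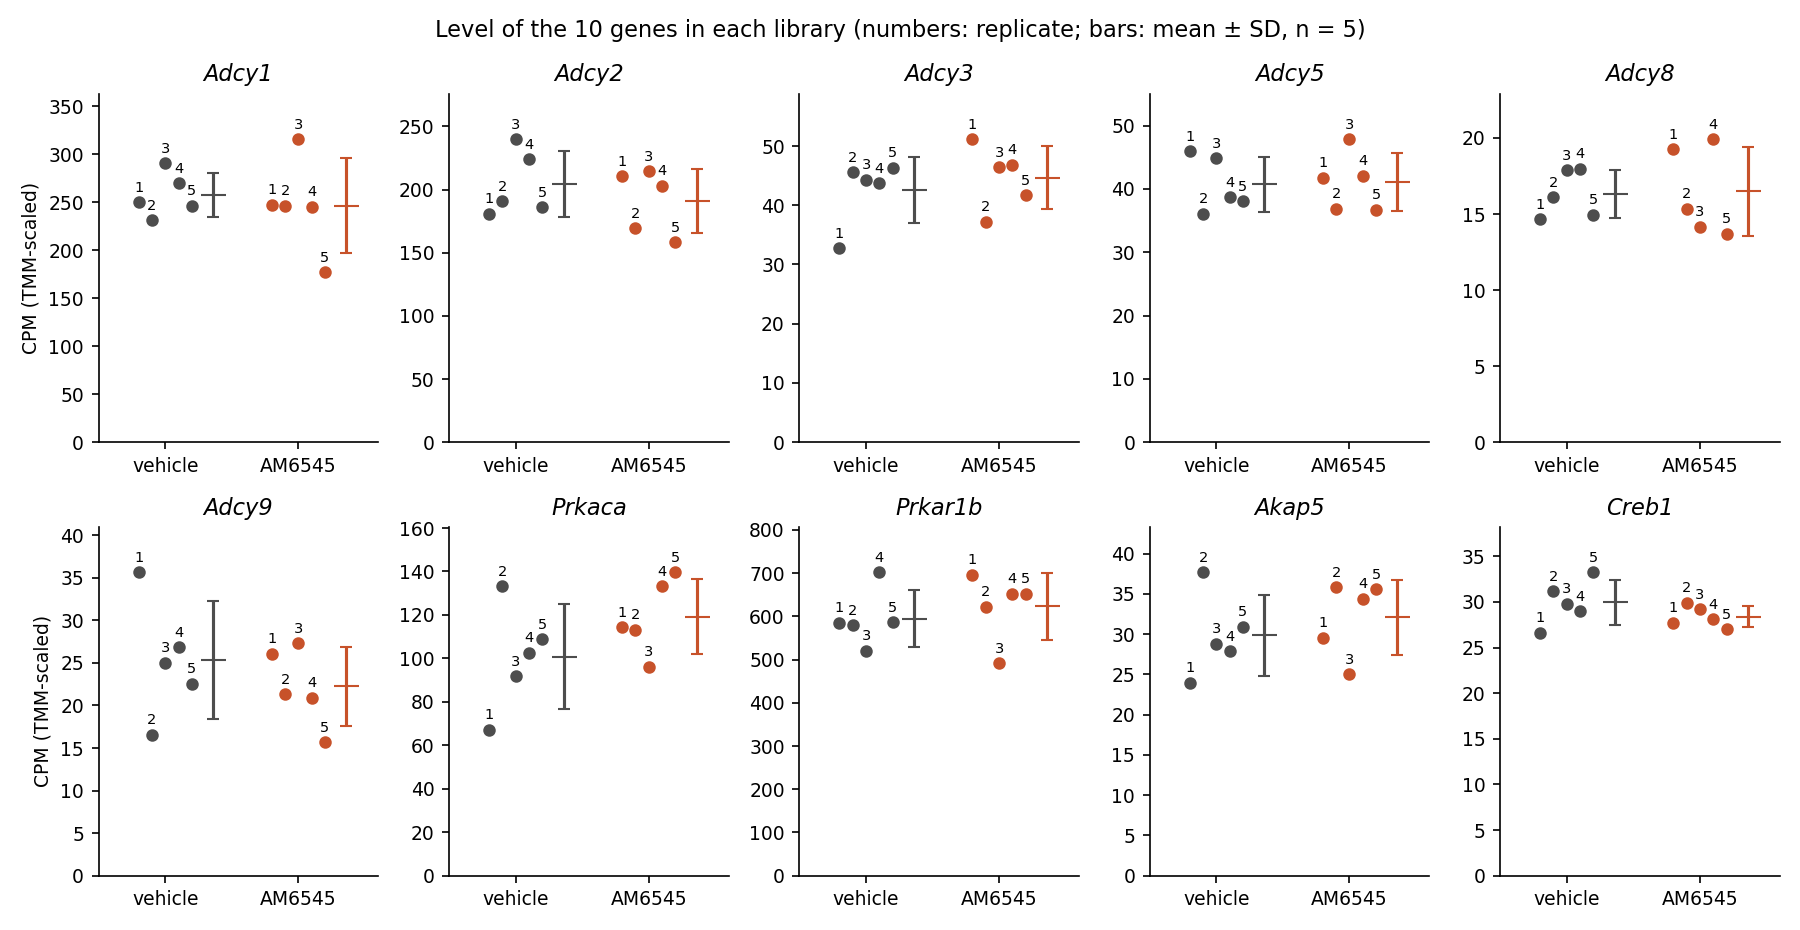
Level of each gene in CPM (TMM-scaled, vertical axes from 0) in the 5 vehicle (grey) and 5 AM6545 (red) libraries. Numbers are replicates, which were not taken as pairing libraries across groups, and bars are the mean ± SD. The groups overlap in every panel, and vehicle replicate 1 is lowest for Prkaca (67.2 CPM) and highest for Adcy9 (35.6 CPM).

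The levels of different genes were compared per transcript length, as TPM (length-scaled transcript shares) computed from the transcript estimates. Prkar1b stood highest, at 454 ± 61.4 TPM (SD over 10 libraries), above Prkaca in 10 of 10 libraries. Prkaca at 94.7 ± 23.2 TPM and Adcy2 at 91.1 ± 11.9 TPM were not separated, with Prkaca higher in 6 of 10 libraries. Adcy1 followed at 39.8 ± 5.39 TPM, below Adcy2 and above Adcy3 in all 10. Adcy3 had 18.9 ± 3.02 TPM and was above Adcy5 in all 10 libraries, although their ranges over libraries overlapped. The next levels overlapped in turn: Adcy5 at 11.3 ± 0.900, Adcy9 at 9.56 ± 1.73, Akap5 at 9.41 ± 2.21 and Creb1 at 8.19 ± 1.04 TPM. Adcy8 was lowest, at 4.59 ± 0.699 TPM, below Creb1 in all 10 libraries.

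Among the adenylyl cyclases, the calcium-insensitive enzyme gene Adcy2 held the largest part of the RNA. Of the summed TPM of all 10 mammalian cyclase genes, Adcy2 took 51.5 ± 2.17% in vehicle and 50.5 ± 1.20% after AM6545 (± SD, n = 5 a group). Adcy1, whose product is stimulated by calcium and calmodulin, took 22.4 ± 0.553% and 22.2 ± 2.35%. Adcy3 took 10.1 ± 1.52% and 11.1 ± 1.16%. The 4 cyclase genes outside the chosen list were low: Adcy6 had 1.11 ± 0.246% in vehicle libraries and Adcy7 0.394 ± 0.0532%, and Adcy4 and Adcy10, the soluble cyclase, failed the expression filter at 0 to 7 counts per library. The 8 tested cyclase genes had the same order of shares in both groups. These shares are a description with no test.

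Adcy1 (ENSMUSG00000020431, chr11:7063489-7178506, plus strand; all gene positions are those of GENCODE M21 on GRCm38) encodes one of the cyclases that couple synaptic calcium to cAMP. It had 250.3, 231, 290.4, 270.1 and 246 CPM in vehicle replicates 1 to 5 and 247, 247, 316, 245 and 177 CPM in AM6545 replicates 1 to 5. AM6545 replicate 3 lay above and AM6545 replicate 5 below all vehicle libraries, so the AM6545 group was the wider one. The means were 258 ± 23.0 and 246 ± 49.1 CPM (± SD, n = 5 a group; log2 fold change -0.06, SE 0.13, edgeR unadjusted p = 0.619). Without AM6545 replicate 5 the log2 fold change was 0.03. The summed CPM of 5 dentate granule cell markers was also highest in AM6545 replicate 3 (300) and lowest in AM6545 replicate 5 (201). Its vehicle range was 247 to 286. Of these markers, C1ql2 (174 and 103 CPM in these libraries) and Dsp (18.0 and 10.2 CPM) followed the sum. Tdo2 went the other way (11.8 and 15.8 CPM), and Prox1 and Lct were highest in vehicle replicate 2 (77.2 and 33.7 CPM). The oligodendrocyte and astrocyte marker sums were also highest in AM6545 replicate 3 (27446 and 1871 CPM). A link between any of these sums and Adcy1 was not tested.

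Adcy8 (ENSMUSG00000022376, chr15:64697084-64922296, minus strand), the other calcium- and calmodulin-stimulated cyclase of the list, was measured on 257 to 496 counts per library. Its vehicle libraries had 14.7, 16.1, 17.9, 18.0 and 14.96 CPM, and its AM6545 libraries 19.3, 15.4, 14.2, 19.9 and 13.7 CPM. AM6545 replicates 1 and 4 lay above all vehicle libraries and replicates 3 and 5 below them, so the drug group surrounded the control group. Its log2 fold change was 0.02 (SE 0.13, 95% interval -0.25 to 0.28, edgeR unadjusted p = 0.892).

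Adcy2 (ENSMUSG00000021536, chr13:68620043-68999541, minus strand) had 181, 191, 240.0, 224 and 186 CPM in vehicle and 210.4, 169, 214, 203 and 158 CPM after AM6545. AM6545 replicates 2 and 5 were below every vehicle library, while the others lay inside the vehicle range. On the log2 scale the difference was -0.10 (SE 0.11, edgeR unadjusted p = 0.412), and it was -0.03 without vehicle replicate 3. Adcy5 (ENSMUSG00000022840, chr16:35154877-35305738, plus strand), a calcium-inhibited cyclase best known from the striatum, had 45.97, 36.1, 44.8, 38.7 and 38.1 CPM in vehicle and 41.7, 36.9, 47.9, 42.1 and 36.7 CPM after AM6545. Only AM6545 replicate 3 lay outside the vehicle range, above it. The means were 40.7 ± 4.38 and 41.1 ± 4.60 CPM (± SD, n = 5 a group). Its log2 fold change was 0.01 (95% interval -0.21 to 0.23, edgeR unadjusted p = 0.911).

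Adcy3 (ENSMUSG00000020654, chr12:4133103-4213525, plus strand), the cyclase of olfactory neurons and of neuronal primary cilia, had 32.7, 45.6, 44.3, 43.7 and 46.4 CPM in vehicle and 51.2, 37.2, 46.5, 46.9 and 41.7 CPM after AM6545. Vehicle replicate 1 stood below the other 9 libraries, and AM6545 replicates 1, 3 and 4 were above every vehicle library. The log2 fold change was 0.07 (SE 0.11, edgeR unadjusted p = 0.544), and without vehicle replicate 1 it was -0.01. Exons of Cenpo, a gene with 4.04 CPM on average, overlap Adcy3 on the opposite strand in the GENCODE M21 annotation, and the use of strand in counting is not given in the sources used here. Adcy2 and Prkar1b likewise overlap exons of Gm35161 (opposite strand) and Gm15672 (same strand).

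Adcy9 (ENSMUSG00000005580, chr16:4287529-4420498, minus strand), a widely expressed cyclase that is less sensitive to forskolin than its relatives, was the member with the lowest estimate. Its vehicle libraries had 35.6, 16.6, 25.0, 26.9 and 22.6 CPM, and its AM6545 libraries had 26.1, 21.3, 27.3, 20.9 and 15.7 CPM. Vehicle replicate 1 was the highest of the 10, and vehicle replicate 2 was lower than all but AM6545 replicate 5, so the vehicle group alone spanned nearly the whole range. The means were 25.3 ± 6.94 and 22.3 ± 4.65 CPM (± SD, n = 5 a group; log2 fold change -0.19, SE 0.18, edgeR unadjusted p = 0.315). Without vehicle replicate 1 the log2 fold change was -0.03, and without vehicle replicate 2 it was -0.31 (edgeR unadjusted p = 0.0732).

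Prkaca (ENSMUSG00000005469, chr8:83972993-83996443, plus strand) encodes the alpha catalytic subunit of PKA, the enzyme itself. Its vehicle libraries had 67.2, 133, 91.8, 102.7 and 109 CPM, and its AM6545 libraries 114, 113, 96.1, 133 and 139.5 CPM. AM6545 replicate 5 was the highest of all, vehicle replicate 1 the lowest, and the rest overlapped. The mean was 101 ± 24.1 CPM in vehicle and 119 ± 17.3 CPM after AM6545 (± SD, n = 5 a group), which gave 0.24 on the log2 scale, SE 0.15 (95% interval -0.08 to 0.56, edgeR unadjusted p = 0.126). This was the largest estimate of the 10, and it moved with the vehicle libraries included. It was 0.13 without vehicle replicate 1 (edgeR unadjusted p = 0.306) and 0.36 without vehicle replicate 2 (edgeR unadjusted p = 0.0193, adjusted p = 0.915).

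Prkar1b (ENSMUSG00000025855, chr5:139017306-139150001, minus strand) encodes the RI-beta regulatory subunit, a neuron-enriched partner that holds the catalytic subunit inactive. It had 585, 579, 521, 702 and 586 CPM in vehicle and 696, 622, 492, 653 and 652 CPM after AM6545. Both extremes were single libraries, vehicle replicate 4 at the top and AM6545 replicate 3 at the bottom. Its log2 fold change was 0.07 (SE 0.11, edgeR unadjusted p = 0.557), and it was 0.02 without AM6545 replicate 1 and 0.14 without AM6545 replicate 3. Within the PKA family Prkar1b took 33.2 ± 1.37% of the summed TPM of 6 subunit genes in vehicle and 32.4 ± 1.46% after AM6545 (± SD, n = 5 a group), below Prkar1a, the RI-alpha gene, at 49.5 ± 1.96% and 49.6 ± 1.61%. Prkaca held 6.45 ± 1.39% and 7.10 ± 0.716%, and Prkacb, the beta catalytic subunit gene, held 7.98 ± 1.29% and 8.11 ± 0.405%.

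Akap5 (ENSMUSG00000021057, chr12:76324891-76334153, plus strand) encodes the postsynaptic scaffold that brings PKA together with calcineurin and glutamate receptors. It had 24.0, 37.7, 28.8, 27.9 and 30.9 CPM in vehicle and 29.5, 35.8, 25.0, 34.4 and 35.6 CPM after AM6545. All AM6545 values lay inside the vehicle range, whose ends were vehicle replicates 1 and 2. On the log2 scale the difference was 0.10 (SE 0.13, edgeR unadjusted p = 0.432), and it was 0.04 without vehicle replicate 1 and 0.20 without vehicle replicate 2.

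Creb1 (ENSMUSG00000025958, chr1:64532645-64604548, plus strand) had the smallest spread over libraries of the 10 genes. Its vehicle libraries had 26.7, 31.2, 29.8, 29.0 and 33.2 CPM, and its AM6545 libraries 27.7, 29.9, 29.2, 28.1 and 27.0 CPM. The 5 AM6545 libraries again lay inside the vehicle range, and the highest of the 10 was only 1.247 times the lowest. The means were 30.0 ± 2.46 and 28.4 ± 1.18 CPM (± SD, n = 5 a group; log2 fold change -0.08, 95% interval -0.27 to 0.11, edgeR unadjusted p = 0.398), and the log2 fold change was -0.04 without vehicle replicate 5. RNA level says nothing of phosphorylation, the step by which CREB is usually switched on.

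**Figure D2:**
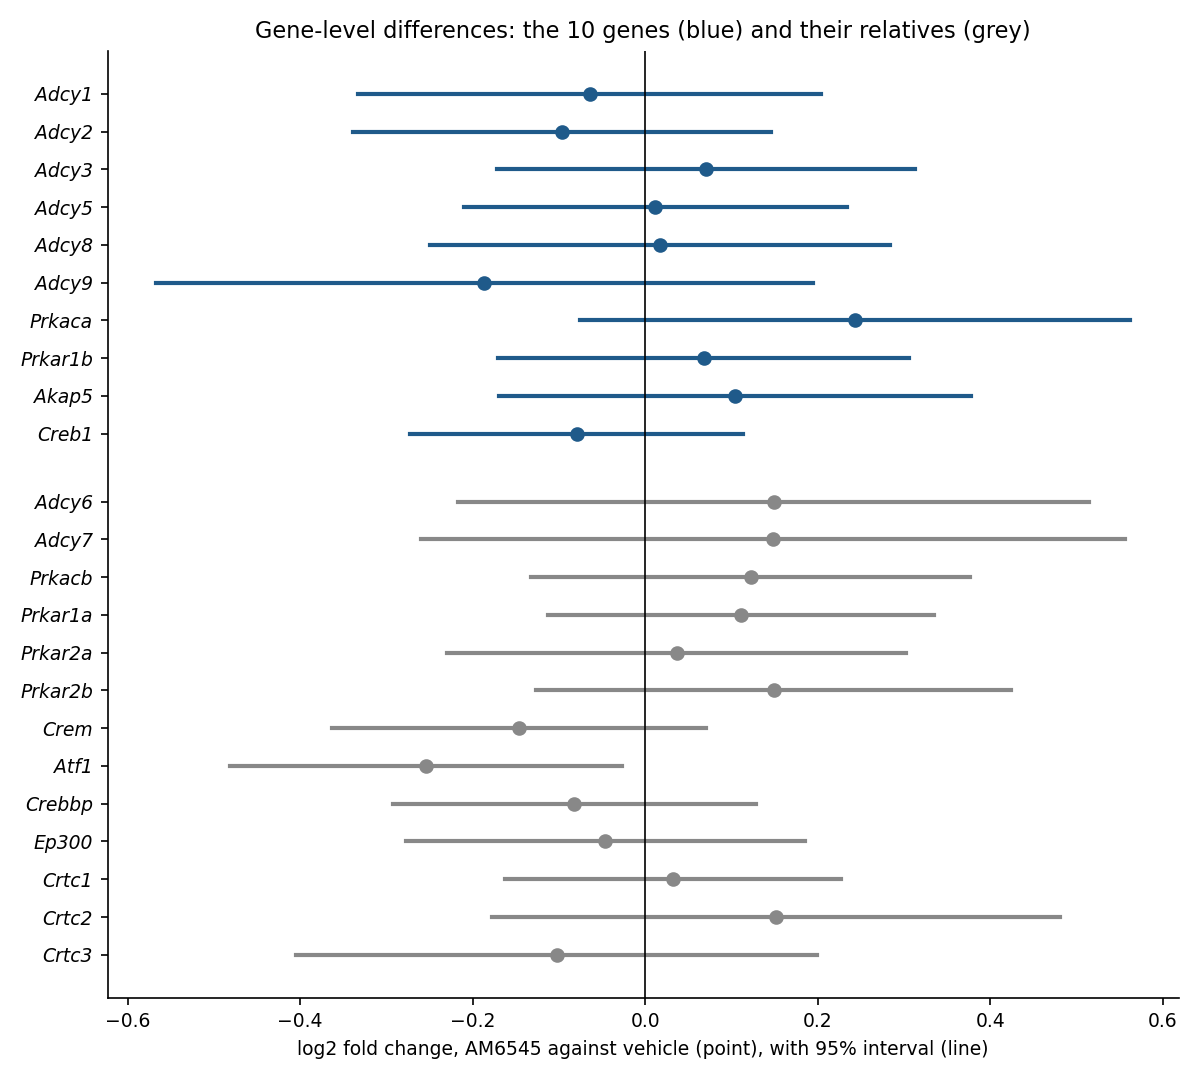
Log2 fold change of AM6545 against vehicle (horizontal axis) with its 95% interval for the 10 genes (blue) and for their 13 tested relatives (grey). The interval of each blue gene crosses 0, and among the grey genes only that of Atf1 does not (-0.48 to -0.03).

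Several of the 10 genes varied together from library to library, within both treatment groups. Over the 10 libraries, log2 CPM of Prkaca and Akap5 ran together (Pearson r = 0.87, Spearman rho = 0.84), while Adcy9 ran opposite to both (r = -0.90 and rho = -0.87 with Prkaca, r = -0.92 and rho = -0.93 with Akap5). The same signs held within each group of 5: Adcy9 and Prkaca had r = -0.95 among vehicle libraries and r = -0.85 among those of AM6545. Without vehicle replicate 1 and AM6545 replicate 5, the libraries farthest from the median of Adcy9, this pair had r = -0.79 over the remaining libraries. Without vehicle replicate 1 alone, r was -0.85 for Adcy9 and Prkaca, -0.88 for Adcy9 and Akap5, and 0.84 for Prkaca and Akap5. Adcy5 sided with Adcy9 (r = 0.75), and Adcy1 with Adcy2 (r = 0.78). Creb1 had r between -0.36 and 0.33 with the others over all 10 libraries, but the groups differed in sign for several genes: with Adcy3, Prkaca, Akap5 and Adcy9 it had r = 0.87, 0.80, 0.76 and -0.78 among vehicle libraries and r = -0.44, -0.69, -0.20 and 0.49 among those of AM6545. That difference was not tested. Of the 45 pairs, 27 correlated positively and 18 negatively, with a median r of 0.13. These correlations are a description with no test: the points share depth, cell makeup and the scaling of each library.

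Vehicle replicates 1 and 2 lie at opposite ends of this pattern. The library measures given above move with it in part. Vehicle replicate 1, where longer transcripts were low, had the lowest Prkaca and Akap5 and the highest Adcy9. Vehicle replicate 2, whose correlation with length was the highest of the 10 (r = 0.27), had the highest Akap5. AM6545 replicate 5 went the other way: its correlation with length (r = -0.14) was the next most negative after that of vehicle replicate 1, yet it had the highest Prkaca and the lowest Adcy9 of the 10 libraries. Prkaca itself has a short transcript of 2276 bases, Akap5 a mean transcript length of 6580 bases and Adcy9 one of 4791 bases. The part of transcript length or cell makeup in the pattern was not tested.

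**Figure D3:**
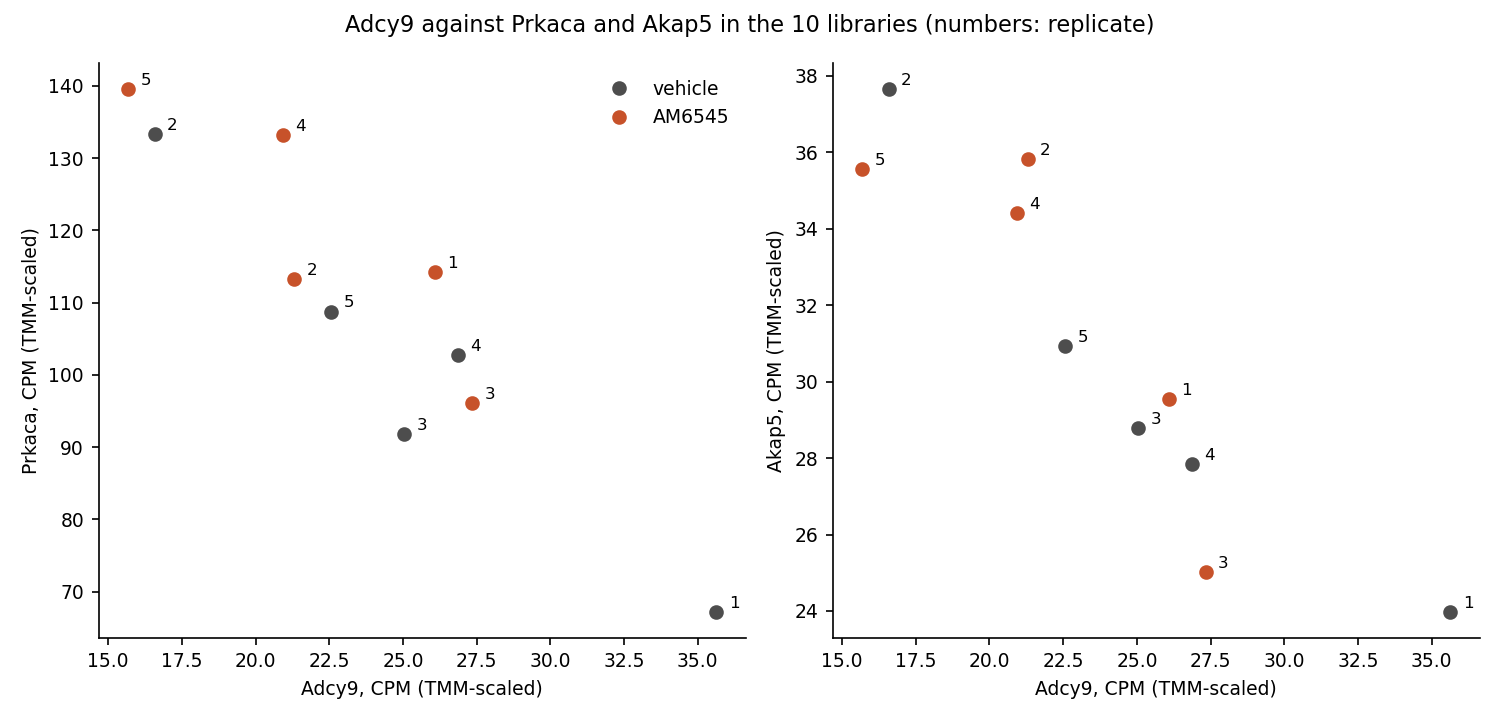
Adcy9 (horizontal axis, CPM) against Prkaca (left) and Akap5 (right; vertical axes, CPM, not starting at 0) in the 10 libraries, vehicle in grey and AM6545 in red, with replicate numbers. Libraries high in Adcy9 are low in the other genes in both groups; vehicle replicate 1 is at one end, and vehicle replicate 2 and AM6545 replicate 5 are at the other.

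The genes with the most similar profile were searched for 3 members among 14337 tested genes outside the list, over the 10 libraries. For Prkaca they were Ctbp1 (r = 0.978, rho = 0.98), Gpd1l (r = 0.978, rho = 0.98) and Fto (r = 0.9752, rho = 0.99). For Adcy1 they were Pcdh17 (r = 0.954, rho = 0.76), Hhex (r = 0.953, rho = 0.79) and Mboat2 (r = 0.952, rho = 0.77). For Creb1 they were Arhgef11 (r = 0.896, rho = 0.96), Homer1 (r = 0.891, rho = 0.85) and Dennd1b (r = 0.883, rho = 0.83). These are the highest of many correlations over few libraries and carry no test.

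The transcript table divides each gene among its annotated transcripts. For the 10 genes it held 36 transcripts with a count, of which 19 passed the filter. With edgeR's quasi-likelihood test, 0 of the 19 had an adjusted p under 0.05, where 0.00314% of 31848 transcripts tested did (a single transcript, of Srrm1). At an unadjusted p under 0.05 there were 0 of the 19, against 1.97% of all transcripts, and 0 of the 19 had groups that did not overlap, against 0.575%. The smallest unadjusted p was 0.198, for Prkaca-201, which held 99.98% of the gene's counts. Adcy1, Adcy2 and Adcy5 had a single transcript with counts each, and Prkar1b-201 held 99.2% of its gene's counts, so for these genes the transcript level repeated the gene level. Adcy3, Adcy8, Adcy9, Akap5 and Creb1 were divided among transcripts.

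Adcy8-201 and Adcy8-202 differ by a single coding exon, and a coding exon is also the difference in coding sequence between the most abundant Creb1 transcripts, Creb1-201 and Creb1-202. These exons are shown because they tell the isoforms apart within the coding sequence. Both have a length that is a multiple of 3, so skipping leaves the reading frame. In GENCODE M21 on GRCm38, the Adcy8 exon is exon 11 of 18 of Adcy8-201, at chr15:64744841-64744930 on the minus strand, 90 bases or 30 codons long. The Creb1 exon is exon 4 of 9 of Creb1-201, at chr1:64559727-64559768 on the plus strand, 42 bases or 14 codons long. It is the exon that distinguishes the alpha form of CREB from the delta form. The sequences run 5′ to 3′ on the transcript strand, with no part capitalised:
Adcy8-201 exon 11: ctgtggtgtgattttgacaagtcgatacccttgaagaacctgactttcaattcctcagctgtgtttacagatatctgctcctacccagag
Creb1-201 exon 4: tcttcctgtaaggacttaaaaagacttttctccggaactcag

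For Adcy8, the transcript with the 90-base exon took 56.5, 62.7, 72.3, 56.5 and 51.4% of the gene's counts in vehicle and 70.8, 55.0, 41.0, 80.3 and 80.9% after AM6545. The AM6545 libraries again surrounded the vehicle libraries, with replicate 3 below and replicates 4 and 5 above all of them. Adcy8-201 had a log2 fold change of 0.16 (SE 0.27, edgeR unadjusted p = 0.562). Adcy8-202, which lacks the exon, had -0.25 (SE 0.30, edgeR unadjusted p = 0.423). These values rest on 105 to 384 counts of Adcy8-201 and 51 to 187 of Adcy8-202 per library, and the share itself was not tested.

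For Creb1, Creb1-202, which lacks the 42-base exon, held 86.6 ± 8.70% of counts in vehicle and 86.7 ± 7.54% after AM6545 (± SD, n = 5 a group). Creb1-201, with the exon, was listed at 0 counts in vehicle replicate 1 and AM6545 replicate 2 and had 27 to 150 counts in the other 8 libraries. The log2 fold change was -0.07 for Creb1-202 (SE 0.10, edgeR unadjusted p = 0.530). Besides that exon these transcripts differ at both ends, with annotated lengths of 8364 bases for Creb1-202 and 5009 for Creb1-201, so their counts do not measure exon use alone.

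The other divided genes showed how far such estimates can swing between libraries. Adcy9-203 took between 36.04% and 90.9% of the Adcy9 counts and Adcy9-202 the rest. Adcy9-203 had a log2 fold change of -0.34, SE 0.41 (edgeR unadjusted p = 0.424), where the error of the gene total was 0.18. Adcy3-201 was the main Adcy3 transcript at 63.9 ± 6.39% in vehicle and 60.7 ± 7.27% after AM6545 (± SD, n = 5 a group). Akap5-201 held 90.5% of all Akap5 counts, but in AM6545 replicate 3 it was listed at 0 and all 454 counts of the gene were given to Akap5-202, which was listed at 0 in the other 9 libraries. Akap5-201 and Akap5-202 have annotated lengths of 6687 and 6685 bases. Akap5-201 had a log2 fold change of -0.15 (SE 0.81), and without AM6545 replicate 3 it was 0.17, nearer the gene total.

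**Figure D4:**
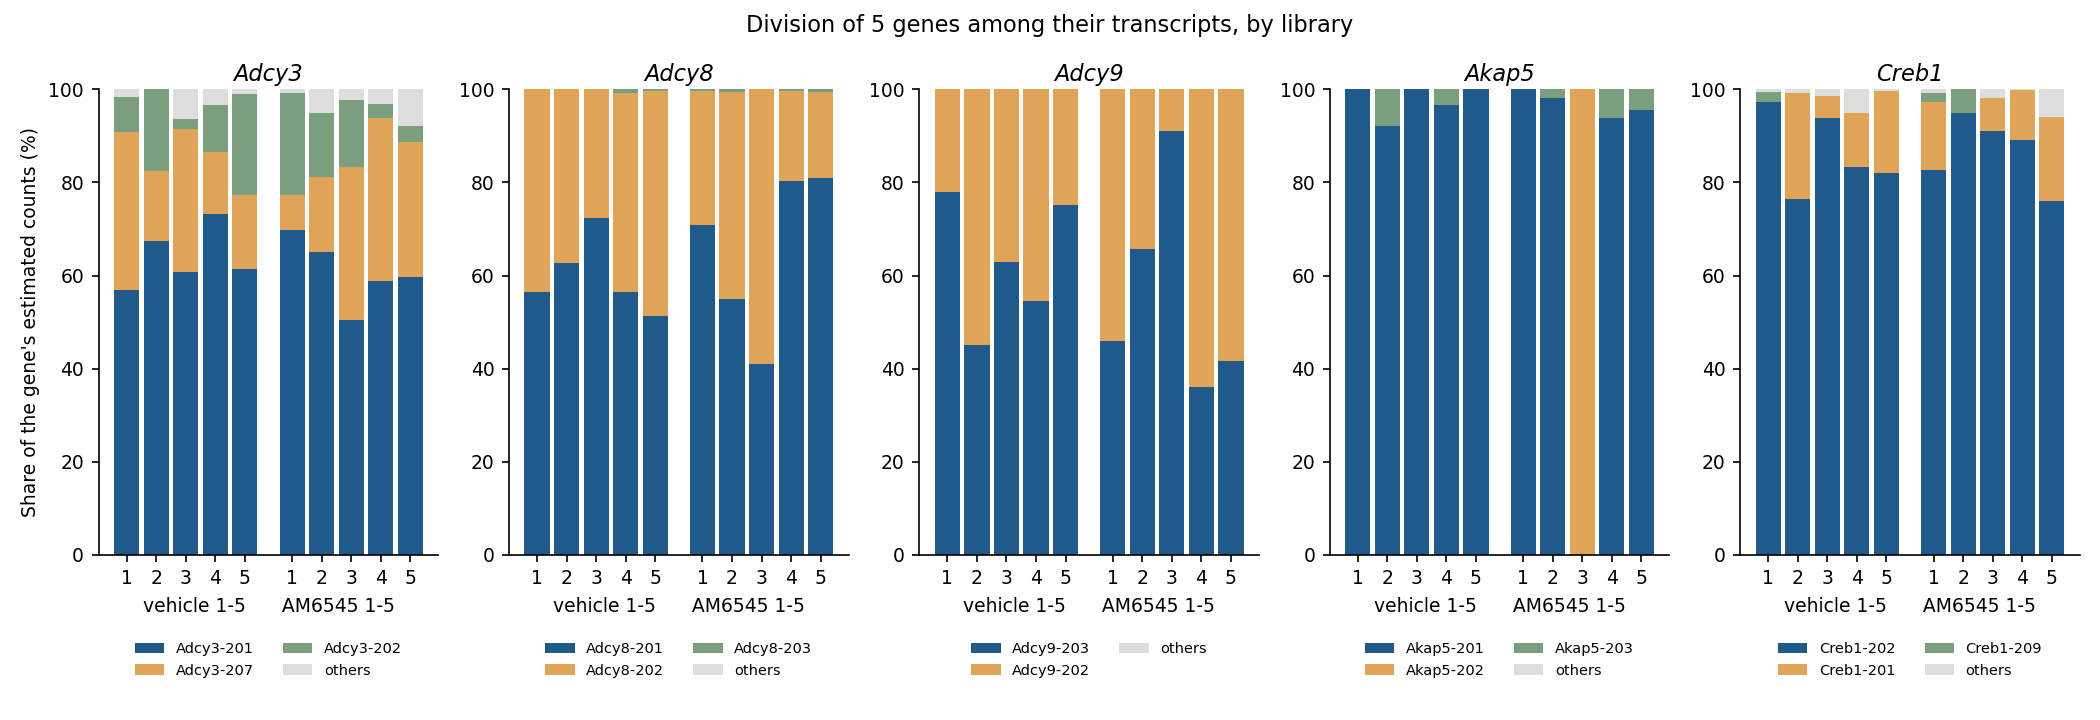
Share of a gene's estimated counts (vertical axis, %) given to each of its transcripts in vehicle replicates 1 to 5 and AM6545 replicates 1 to 5, for the 5 divided genes; colours are transcripts and light grey is all others. Shares swing within both groups, and Akap5 switches wholly to Akap5-202 in AM6545 replicate 3.

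The rest of the cAMP pathway was described through 10 lists, 89 genes in all, of which 82 passed the filter. With edgeR's quasi-likelihood test 0 of the 82 had an adjusted p under 0.05, and 1 (1.22%) had an unadjusted p under 0.05, close to the 1.88% of all genes tested. Log2 fold changes were above 0 for 44 of the 82, with a median of 0.02, where 48.1% of all genes tested were above 0. In 0 of the 82 were the groups apart, against 0.293% of all genes tested.

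The 4 other PKA subunit genes had estimates of 0.15 for Prkar2b, 0.12 for Prkacb, 0.11 for Prkar1a and 0.04 for Prkar2a on the log2 scale, none of which passed the test (smallest edgeR unadjusted p = 0.269). Prkar2a was on the other side of 0, at -0.03, with limma-voom and sample quality weights. Prkar1a was the most abundant subunit gene, at 1136 ± 99.9 CPM in vehicle and 1227 ± 121 CPM after AM6545 (± SD, n = 5 a group). The 3 genes of PKI peptides, which block the catalytic subunit, had -0.19 for Pkib (edgeR unadjusted p = 0.0771), -0.17 for Pkig and 0.01 for Pkia. Of the other A-kinase anchoring protein genes, 7 of 12 tested were above 0 with a median of 0.08, and the smallest p belonged to Gskip (log2 fold change -0.16, edgeR unadjusted p = 0.116). The other cyclase genes that were tested, Adcy6 and Adcy7, had estimates of 0.15 each with SEs of 0.17 and 0.19.

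Upstream, Gnas encodes the Gs alpha subunit that switches on the cyclases. It had 1215, 1228, 1194, 1316 and 1214 CPM in vehicle and 1357, 1348, 1224, 1426 and 1590 CPM after AM6545. All AM6545 libraries but replicate 3 were above every vehicle library. On the log2 scale the difference was 0.17 (SE 0.10, edgeR unadjusted p = 0.103, adjusted p = 0.9998). In 3 of 17 alternative settings the unadjusted p was under 0.05, the smallest being 0.0294 with limma-voom. The smallest adjusted p in any of them was 0.915. Of the Gs-coupled receptor genes, 7 of 13 tested were above 0 with a median of 0.01, and the serotonin receptor gene Htr7 had the smallest p (log2 fold change 0.23, edgeR unadjusted p = 0.0767). Of the phosphodiesterase genes, whose products break down cAMP, 9 of 15 tested were above 0 with a median of 0.04. Pde10a had the smallest p among them (log2 fold change -0.14, edgeR unadjusted p = 0.144). Rapgef3, which encodes the cAMP-activated exchange factor Epac1, had 0.15 (edgeR unadjusted p = 0.232).

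The relatives and coactivators of CREB included the only pathway gene at an unadjusted p under 0.05. This was Atf1, a close relative that can pair with CREB on DNA. It had 15.4, 14.3, 15.9, 13.0 and 14.7 CPM in vehicle and 11.04, 11.9, 14.2, 12.1 and 12.1 CPM after AM6545. Only AM6545 replicate 3 lay within the vehicle range, and the other AM6545 libraries were below it. The means were 14.6 ± 1.13 and 12.3 ± 1.17 CPM (± SD, n = 5 a group; log2 fold change -0.25, SE 0.11, edgeR unadjusted p = 0.0303, adjusted p = 0.9998), so it did not pass the test. With each library left out in turn, the edgeR unadjusted p ran from 0.0118 to 0.0769. Crem, another relative, had -0.15 (edgeR unadjusted p = 0.173). The coactivator genes Crebbp, Ep300, Crtc1, Crtc2 and Crtc3 had log2 fold changes of -0.08, -0.05, 0.03, 0.15 and -0.10, with edgeR unadjusted p from 0.343 to 0.732. Crtc2 was 0.34 without vehicle replicate 2 (edgeR unadjusted p = 0.0112, adjusted p = 0.915) and 0.07 without vehicle replicate 1.

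**Figure D5:**
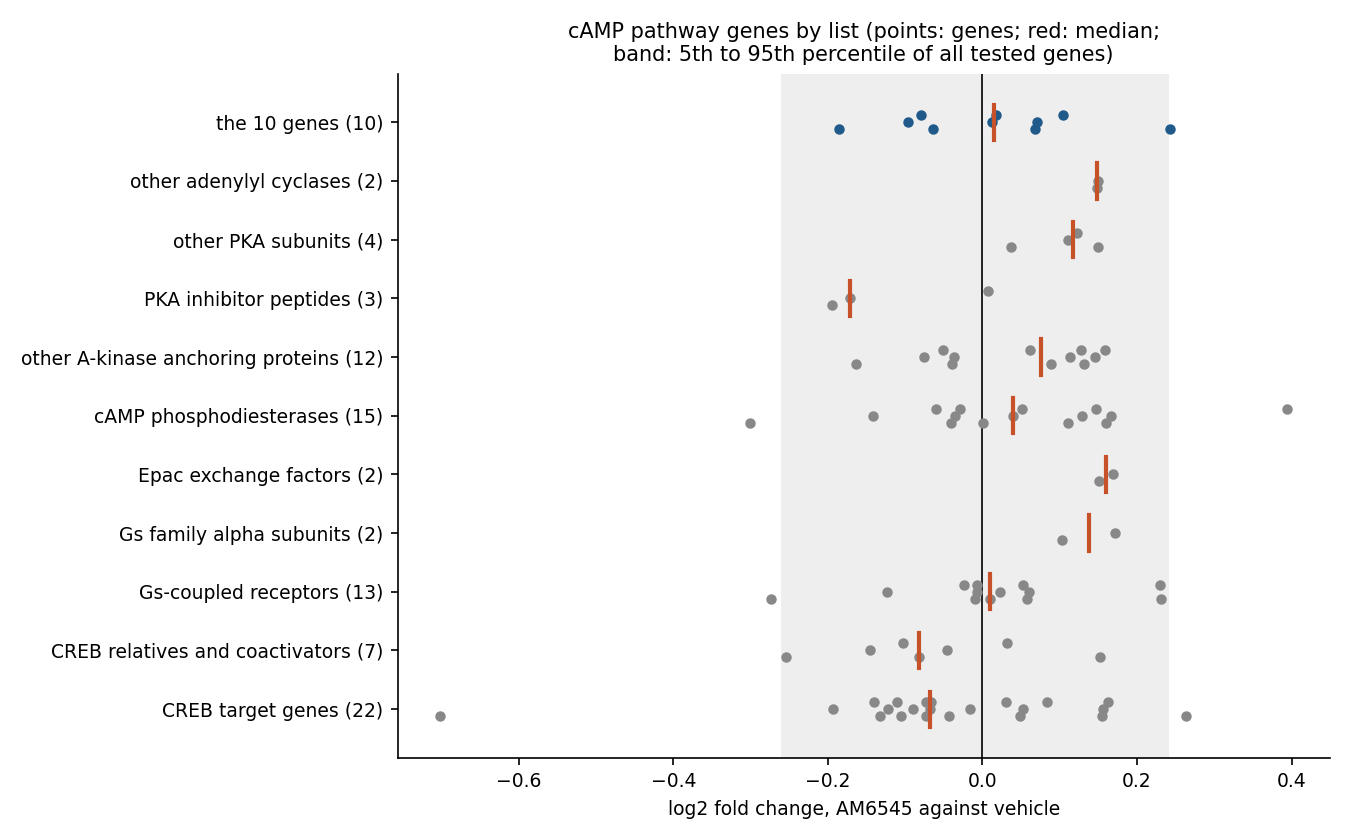
Log2 fold change of AM6545 against vehicle (horizontal axis) for each tested gene of the 10 genes (blue) and the 10 pathway lists (grey; number of tested genes in brackets), with list medians in red. The band is the 5th to 95th percentile of all tested genes (-0.26 to 0.24), and the gene farthest from 0 is Fosb at -0.70.

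CREB acts on promoters that carry the cAMP response element, whose full form is TGACGTCA. Of 22 known CREB target genes, 8 had a log2 fold change above 0 and 14 below, where 48.1% of all genes tested were above 0. The median of the 22 was -0.07, and 0 passed the test. The gene of smallest p was Fosb, an activity-induced transcription factor gene, at -0.70 (SE 0.44, edgeR unadjusted p = 0.127) on 4 to 47 counts per library. Without vehicle replicate 1, which had 2.28 CPM where the other vehicle libraries had 0.655 to 0.850, it was -0.21.

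Promoter windows of 300 bases (250 before to 50 after the start) were taken from RefSeq on GRCm38.p6, and both strands were searched. The full element was in 1.79% of all 32851 windows. It was in 0 of the 15 windows of the 9 members with an entry. Counted by gene, it was in windows of 4 of the 16 target genes with an entry (25%), against 2.03% of all genes. In the other pathway lists, Prkar1a was the only gene with it in a window. The shorter core was TGACG, or CGTCA on the other strand, which every full element also contains. It was in windows of 3 of the 9 members, Adcy9, Prkaca and Prkar1b (33.3%, against 23.0% of all genes). Counted by window, the core was in 20% of the 15 member windows, against 20.8% of all windows, so the members showed no excess. Of the 16 target genes, 14 had the core in a window (87.5%). The target genes were listed as known CREB targets, so their share of elements is no independent result. A match is a description of letters and not a binding site. The elements of the 4 target genes are shown, with the element in capitals and 10 bases on each side, because they are the full form of the sequence that CREB binds:
Dusp1 (chr17:26508598-26508625, minus strand): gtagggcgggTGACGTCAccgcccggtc
Pcsk1 (chr13:75089769-75089796, plus strand): caggtagatcTGACGTCAagagatggct
Scg2 (chr1:79440077-79440104, minus strand): gctgagccggTGACGTCAgcgtggaatg
Sst (chr16:23890875-23890902, minus strand): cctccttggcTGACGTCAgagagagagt

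These genes were named for their promoters and not by their values. Their log2 fold changes lay on both sides of 0, at -0.11 for Dusp1, 0.08 for Pcsk1, -0.07 for Scg2 and -0.09 for Sst, and none passed the test. Sst, the somatostatin gene in which the element was first studied, averaged 222 ± 80.7 CPM (SD, n = 5) with vehicle and 209 CPM with AM6545. Vehicle replicate 1 was high for it, at 359 CPM against 149.8 to 219 CPM in the other vehicle libraries.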

How the data were processed

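RNA-seq of 10 hippocampal synaptoneurosome libraries was analysed, 5 per group. The authors deposited estimated counts per gene (22255) and per transcript (102392), in which 38.6% and 41.56% of values were not whole. The submitters' processing notes name Salmon 1.5.2 and mm10; the annotation release and the use of strand are not given in the sources used here. Estimated counts were rounded, filtered with filterByExpr (minimum count 10, minimum total 15), scaled by TMM and tested with edgeR 4.0.16 (R 4.3.3) by its two-sided quasi-likelihood test with robust dispersions, with Benjamini-Hochberg adjustment over all features tested and a threshold of 0.05. Symbols were matched for 22155 gene IDs. Positions and transcript lengths come from GENCODE M21 (GRCm38), to which 101575 transcripts matched by ID; only 11 gene IDs had the same version there, so the authors' gene models can differ from those printed. TPM were computed from the transcript estimates and these lengths. Correlations used log2 CPM with a prior count of 2. Library totals of 18106112 to 25899794 counts limit precision for low genes.

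The members and lists were chosen with earlier results of these data known. Named genes were all 10 members, the other cyclases, PKA subunits and CREB relatives, from each other list the gene of smallest unadjusted p plus any under 0.05, from each member the transcript of highest mean CPM and that of smallest p, and for Adcy1, Prkaca and Creb1 the 3 genes of most similar profile. Genes named outside this rule are the remaining PKI genes, the transcripts discussed for exon use or for swings between libraries, and the 4 target genes with a full element. Alternatives used DESeq2 1.42.0, limma 3.58.1 (voom with sample quality weights), other scalings and filters, a replicate block, and each library left out in turn. The fit was tested on simulated data. Tables were made with Python 3.11.15, numpy 2.4.6, pandas 2.3.3 and scipy 1.17.1, and figures with matplotlib 3.10.9.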

Additional observations from a re-analysis of the deposited data

Results flagged for a closer look

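In 5 of 64 groups of 5 libraries, a single library stood apart from the other 4 by Dixon's test at the 95% level, where chance gives about 3.2 (1 in 20 groups). Among the 10 genes this was 1 of 20 groups: Adcy3 in vehicle replicate 1, at 32.7 CPM against 43.7 to 46.4 in the other vehicle libraries. The same library stood apart for Gskip, an A-kinase anchoring protein gene, at 82.8 CPM against 66.2 to 69.8, and for Fosb, at 2.28 CPM against 0.655 to 0.850. Vehicle replicate 4 was high for Gnas, at 1316 CPM against 1194 to 1228, and vehicle replicate 3 was low for Crtc3, at 5.39 CPM against 8.07 to 8.48.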

How the results depend on the processing

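No member passed the threshold in any of 17 alternatives. Of 170 values, 159 kept their direction, and the 11 that reversed each left out 1 library. Leaving out libraries, log2 fold changes ran from -0.17 to 0.034 for Adcy1, -0.0094 to 0.13 for Adcy3, -0.048 to 0.059 for Adcy5, -0.060 to 0.077 for Adcy8, -0.049 to 0.13 for Prkar2a, -0.084 to 0.020 for Ep300 and -0.0024 to 0.083 for Crtc1, without a change of sign from -0.14 to -0.032 for Adcy2, -0.31 to -0.032 for Adcy9, 0.13 to 0.36 for Prkaca, 0.017 to 0.14 for Prkar1b, 0.036 to 0.20 for Akap5, -0.12 to -0.039 for Creb1 and 0.071 to 0.34 for Crtc2, and for transcripts from -0.18 to 0.031 for Adcy1-201, -0.14 to 0.046 for Adcy3-201, -0.055 to 0.057 for Adcy5-201, -0.014 to 0.31 for Adcy8-201 and -0.28 to 0.17 for Akap5-201. Prkar2a was -0.029 with limma-voom. Prkaca had an unadjusted p of 0.0398 with limma-voom (adjusted p = 0.923). Genes past the threshold numbered 0 throughout, except 0 to 1 with libraries left out (1 without vehicle replicate 3 or AM6545 replicate 3). Genes at an unadjusted p under 0.05 numbered 270, and 433 with no filter and 710 with limma-voom, and 165 (without AM6545 replicate 4) to 578 (without vehicle replicate 2) with libraries left out; it was 414 without vehicle replicate 4 and 504 without AM6545 replicate 3. For transcripts it was 627, 1227 with limma-voom, 2849 with no filter and 530 to 943 with libraries left out, the highest without vehicle replicate 2. Transcripts past the threshold numbered 1, and 11 with the DESeq2 Wald test, 0 with limma-voom, 2 with no filter, 0 with at least 10 counts in every library, and 0 to 4 with libraries left out (4 without AM6545 replicate 3, 2 without vehicle replicate 2 or AM6545 replicate 2), none of them of the 10 genes. The replicate block gave 0 genes and 0 transcripts; libraries of the same number correlated at -0.19 to 0.39, not all above 0.1, so the numbers were not taken as pairing them. How detection depends on the count level was not tested.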
